A study of Homo sapiens with 39 samples.

Results

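Untreated cultures of 4 human B cell lymphoma lines were compared: OCILy10 and TMD8, lines of the activated B cell type of diffuse large B cell lymphoma, against DOHH2 and Toledo, lines of the germinal centre type. The assignment to a type is textbook knowledge of these lines and is not part of the sample labels. The comparison used 11 of the 39 RNA-seq libraries of the study: 3 of OCILy10, 3 of TMD8, 3 of DOHH2 and 2 of Toledo, all from cells exposed for 6 h to DMSO, the vehicle of the study's compounds. The members were the DMSO libraries of these lines less Toledo replicate 2, in which 34 genes read in OCILy10 and in no other line stood at a median of 66.6% of their OCILy10 level, against at most 1.59% in the 8 other libraries used. Libraries of the same lines exposed for 6 h to NEO2734, an inhibitor of BET and CBP/p300 bromodomains, and to OTX015, a BET bromodomain inhibitor, served for a second reading of the same contrast. Each line is a single established culture, so a type is represented by 2 lines, and what is particular to those lines and what belongs to the type cannot be told apart.

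The activated type is known for constant signalling from the B cell receptor and MYD88 to the transcription factor NF-kB, for high levels of the transcription factor IRF4 and for autocrine interleukin signals through STAT3. The germinal centre type is known for the programme of the germinal centre, where B cells divide and mutate their antibody genes under the repressor BCL6, and for the surface enzyme MME, also called CD10. Textbook classifiers of the types rest on short lists of genes that are high in either type.

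Library totals ranged from 1000281 to 10044245 counts and fell into 5 deep libraries of at least 6670250 and 6 shallow ones of at most 2175778, and 2 of the deep ones were of OCILy10. Between 13017 and 14545 genes had a count. Levels are CPM, read counts scaled to the size of the library by the TMM method, and not by gene length, and are compared for a gene between libraries only. Differences are on the log2 scale of the fitted model, OCILy10 and TMD8 minus DOHH2 and Toledo, with a term for depth, and ± after a log2 value is its SE. A gene is called here at an adjusted p under 0.05 and differed consistently when it also had the same sign in all 4 line pairs across the types. The first principal component of the 11 libraries, with 34.7% of the variance, placed the OCILy10 and TMD8 libraries at -95.25 to -39.55 and the DOHH2 and Toledo libraries at 29.17 to 113.6. The summed level of 6 pan-B cell markers was 2080 to 3980 CPM in OCILy10 and TMD8 libraries and 771 to 1390 CPM in DOHH2 and Toledo libraries, without overlap. Of the 6, 3 were called higher, 2 of them consistently, and 3 were not called, so the sum does not speak for each marker. Among all tested genes, 25.4% were called higher and 17.9% were consistently higher. Of the other markers, the T cell list summed to 0.105 to 83.9 CPM against 46.3 to 88.7 CPM, with 3 of 7 genes in the table, the monocyte list to 7.92 to 44.9 CPM against 3.80 to 39.4 CPM and the stromal and epithelial list to 2.23 to 18.9 CPM against 1.41 to 14.0 CPM. The part of these levels in the results was not tested.

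The question of the comparison is which genes separate untreated lines of the activated type from those of the germinal centre type, line by line. The marker of the activated type, IRF4 (chr6:391739-411447 in GRCh38), which drives plasma cell development and holds survival programmes in this lymphoma type, was read at 737, 753 and 873 CPM in OCILy10 and at 1672, 716 and 1862 CPM in TMD8, against 652, 736 and 804 CPM in DOHH2 and 291 and 179 CPM in Toledo. Both Toledo libraries lay below all others, while the DOHH2 libraries overlapped those of OCILy10 and of TMD8. The group difference was 1.34 ± 0.23 (adjusted p = 0.00021), and it ran from 0.07 ± 0.30 for OCILy10 minus DOHH2 (adjusted p = 0.874) to 2.60 for TMD8 minus Toledo. Without Toledo the IRF4 difference was 0.54 (adjusted p = 0.119).

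MME (chr3:155024124-155183729), the marker of the germinal centre type, was read at 1.48, 1.71 and 2.11 CPM in OCILy10 and at 0, 0.557 and 0 CPM in TMD8, against 52.1, 14.6 and 16.5 CPM in DOHH2 and 529 and 255 CPM in Toledo. The groups did not overlap, and Toledo stood above DOHH2. The MME difference was -8.36 ± 0.34 (adjusted p = 2.71e-10), and it was called with the same sign in each of the 4 line pairs. With the line as the unit, 2 lines against 2, an exact permutation test (two-sided) gave p = 0.333 for IRF4 and for MME, which is the smallest p this design allows.

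**Figure D1:**
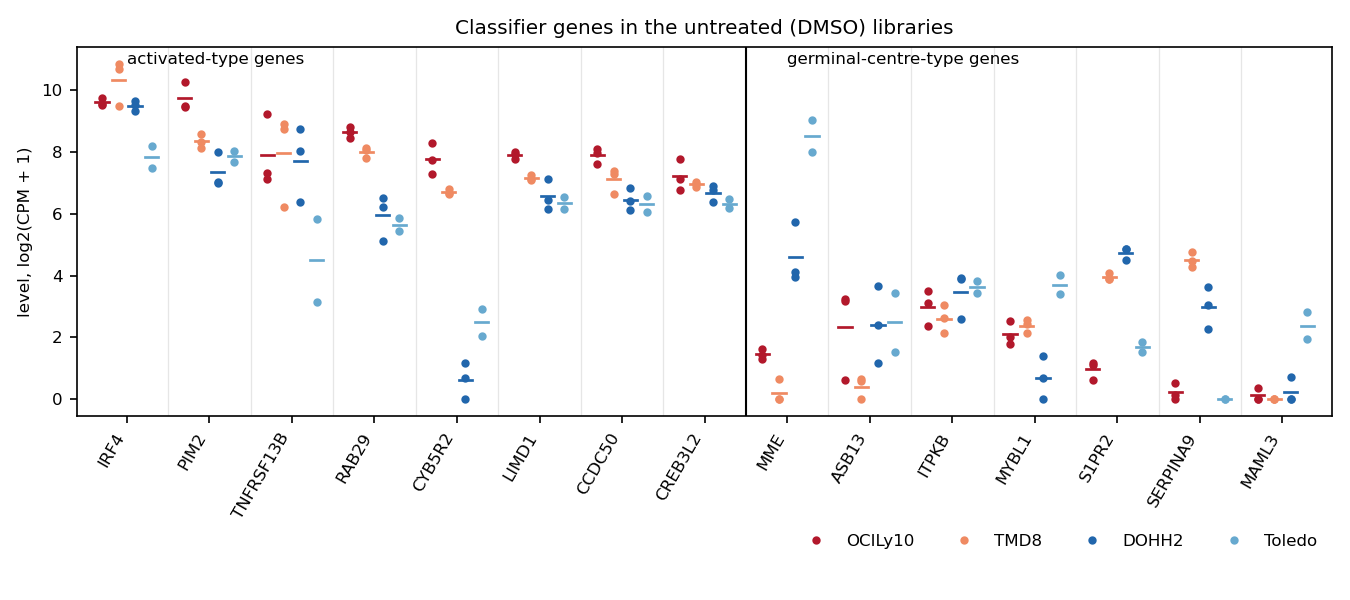
Level, as log2(CPM + 1), of the classifier genes of the activated type (left of the line) and of the germinal centre type (right) in the untreated libraries. Each point is a library, each short bar the mean of a line, with OCILy10 and TMD8 in red tones and DOHH2 and Toledo in blue tones. The activated-type genes stood higher in the red lines, with IRF4 of DOHH2 beside OCILy10, whereas of the germinal-centre-type genes MME alone separated the groups by a wide gap.

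All 8 classifier genes of the activated type were called higher in OCILy10 and TMD8, and all 8 differed consistently, beside 25.4% and 17.9% of all 12068 tested genes. Of the 8, 5 differed consistently in deep libraries alone. Their median difference was 1.41, beside 0.05 over all tested genes. CYB5R2, a cytochrome b5 reductase, was at 100.05 to 312 CPM (median 134) in OCILy10 and TMD8 libraries and at 0 to 6.65 CPM (median 1.27) in DOHH2 and Toledo libraries, a difference of 7.08 ± 0.33 (adjusted p = 6.49e-10). RAB29, a small GTPase of vesicle traffic, followed with 225 to 447 CPM against 33.8 to 91.5 CPM (2.5 ± 0.23). Libraries of the groups did not overlap for these genes or for PIM2, a survival kinase, at 279 to 1231 CPM against 126 to 263 CPM (1.48 ± 0.19). LIMD1 and CCDC50 differed by 1.03 ± 0.15 and 1.08 ± 0.14 and were called in each of the 4 pairs. TNFRSF13B, a receptor for the B cell survival factors BAFF and APRIL, differed by 2.04 ± 0.18, but its DOHH2 libraries, at 81.8, 263 and 427 CPM, overlapped those of OCILy10 and TMD8, at 74.4 to 603 CPM, and it was not called without the depth term (adjusted p = 0.086). CREB3L2, a factor of the secretory pathway, had the smallest difference of the list, 0.58 ± 0.18 (adjusted p = 0.0138), and its adjusted p reached 0.11 when a library was left out.

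The 7 classifier genes of the germinal centre type moved less evenly. Of the 6 tested, 4 were called lower in OCILy10 and TMD8 and 1 higher, beside 22.1% and 25.4% of all tested genes. Consistently lower were 3, namely MME, ASB13 (-2.90 ± 0.63) and the kinase ITPKB (-0.87 ± 0.33), beside 14.6% of all tested genes. The list's median was -0.93. ASB13 and ITPKB were not called without the depth term (adjusted p = 0.088 and 0.12), which left 1 of the 3, as did shallow libraries alone and the fit without TMD8 replicate 1. S1PR2, a receptor that holds B cells in the germinal centre, was at 0.98 ± 0.40 CPM in OCILy10 and 14.6 ± 1.37 CPM in TMD8, against 25.9 ± 3.74 CPM in DOHH2 and 2.27 ± 0.53 CPM in Toledo (SD, n = 3, 3, 3 and 2), so its lines interleaved. SERPINA9, a serpin named for its germinal centre level, was at 22 ± 4.12 CPM in TMD8 and 0.178 ± 0.22 CPM in OCILy10, against 7.52 ± 3.80 CPM in DOHH2 and 0 counts in Toledo. It was the gene called higher in OCILy10 and TMD8, against the type it stands for, though not consistently. MYBL1 was at 3.39 and 4.25 CPM on average in OCILy10 and TMD8 and at 0.747 and 12.4 CPM in DOHH2 and Toledo, with a difference of -0.04 ± 0.46 (adjusted p = 0.959). MAML3 had counts too low to be tested.

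Across the whole table, 5728 of 12068 tested genes were called (47.5%), 3061 higher (25.4%) and 2667 lower (22.1%) in OCILy10 and TMD8. Of these, 3921 genes (32.5%) differed consistently, 2159 higher (17.9%) and 1762 lower (14.6%), and 1285 genes (10.6%) were called in each of the 4 line pairs with the same sign, 748 higher (6.2%) and 537 lower (4.45%). Which direction held more consistent genes depended on the scaling, on 1 library and on the lines used. With library totals in place of TMM scaling, 1897 were higher and 2069 lower. With Toledo replicate 2 in the fit, 3872 genes were called and 2825 differed consistently, 1386 higher and 1439 lower. Without the line DOHH2, 2606 were higher and 2846 lower over the pairs that remained. The single pairs called 5182 genes for OCILy10 minus DOHH2 (42.9%), 5520 for OCILy10 minus Toledo (45.7%), 5356 for TMD8 minus DOHH2 (44.4%) and 5269 for TMD8 minus Toledo (43.7%). Lines within a type also differed widely, with 4259 genes called between OCILy10 and TMD8 (35.3%) and 4696 between DOHH2 and Toledo (38.9%). With the line as the unit, edgeR on counts summed by line and limma on line means called 0 genes each, with 1362 of 13419 and 1160 of 12068 genes at an unadjusted p under 0.05, so every call here speaks of these 4 lines and of the spread between their libraries. The depth term itself was called for 4832 genes (40.0%), and without it 3721 genes were called.

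The germinal centre programme split between the groups, and the lines labelled DOHH2 and Toledo went partly against the type they stand for. BCL6, its central repressor, was at 67.4, 71.5 and 61.3 CPM in OCILy10 and at 32.2, 14.5 and 26.0 CPM in TMD8, against 0 counts in the 3 DOHH2 libraries and 3.89 and 0 CPM in Toledo. The groups did not overlap for BCL6, and DOHH2 held no count at all. Lines were taken by their labels, and their identity was not tested. RGS13, a brake on chemokine signals in germinal centre B cells, was higher in OCILy10 and TMD8, at 22.1 to 85.2 CPM against 0 to 3.43 CPM (6.57 ± 0.45). LMO2 differed by 4.11 ± 0.63, which rested on TMD8, at 29.8 ± 6.04 CPM on average, against 0.449 ± 0.39 CPM in OCILy10 and under 1 CPM in each DOHH2 and Toledo library.

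Other genes of the same textbook list were lower in OCILy10 and TMD8. GCSAM, an adaptor that restrains germinal centre cell movement, was at 0.49 to 4.75 CPM against 145 to 202 CPM (-6.81 ± 0.22, adjusted p = 5.49e-11). CD38, a surface enzyme of germinal centre and plasma cells, was at 2.23 to 9.32 CPM against 123 to 470 CPM (-5.52 ± 0.23). The DNA-binding cofactor SSBP2 was at 0.981 to 6.69 CPM against 40.2 to 137 CPM (-5.00 ± 0.26). These genes and VPREB3, a chaperone of the pre-B cell receptor (-7.06 ± 0.43), were called in each of the 4 pairs, and their libraries did not overlap between the groups. Of the 18 tested genes of the list, 5 were consistently higher and 6 consistently lower, beside 17.9% and 14.6% of all tested genes, with a median of -0.87.

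**Figure D2:**
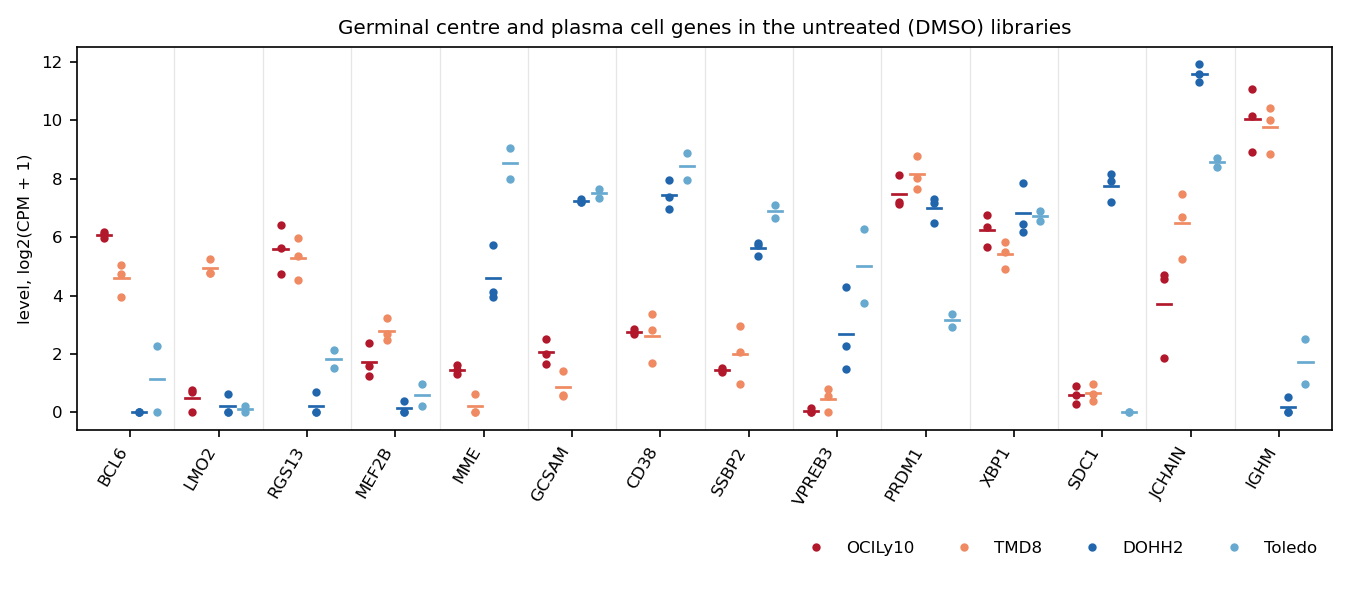
Level, as log2(CPM + 1), of germinal centre genes (BCL6 to VPREB3) and of plasma cell and antibody genes (PRDM1 to IGHM) in the untreated libraries, with points for libraries and short bars for line means. BCL6, RGS13 and IGHM stood higher in OCILy10 and TMD8, and MME, GCSAM, CD38 and SSBP2 in DOHH2 and Toledo, while SDC1 and JCHAIN reached their highest levels in DOHH2.

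Of the plasma cell genes, SDC1, JCHAIN and PRDM1 stood higher in DOHH2 than in Toledo, a pair in which 38.9% of all tested genes were called. SDC1, the surface proteoglycan that marks plasma cells, was at 0.211 to 0.981 CPM in OCILy10 and TMD8 libraries, against 240, 282 and 146 CPM in DOHH2 and 0 counts in Toledo. JCHAIN, which joins antibodies into polymers, averaged 16.9 ± 12.4 CPM in OCILy10 and 105 ± 69.6 CPM in TMD8, against 3150 ± 668 CPM in DOHH2 and 378 ± 53.9 CPM in Toledo, and was lower in OCILy10 and TMD8 by the fit (-4.81 ± 0.45). PRDM1, the repressor that closes the B cell programme, was higher in OCILy10 and TMD8 (2.75 ± 0.20), but it stood at 188 ± 77.8 and 299 ± 123 CPM in these lines beside 130 ± 35.9 CPM in DOHH2 and 8.0 ± 1.90 CPM in Toledo. Of 17 tested plasma cell genes, 3 were consistently higher and 6 consistently lower, beside 17.9% and 14.6% of all tested genes, so the higher count was near that share. The lower ones included XBP1, the driver of the secretory apparatus (-1.01 ± 0.22), and the list median was -0.94.

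Antibody constant genes differed between the groups and between lines. IGHM, the constant region of IgM, was at 1146, 2140 and 487 CPM in OCILy10 and at 1386, 465 and 1038 CPM in TMD8, against 0.435, 0 and 0 CPM in DOHH2 and 4.67 and 0.95 CPM in Toledo (10.24 ± 0.44, adjusted p = 2.79e-10). The kappa light chain IGKC followed with 174 to 305 CPM against 0 to 3.80 CPM (9.15 ± 0.35). IGHD, the constant region of IgD, was at 2.85 to 20.1 CPM against 0 counts in all 5 libraries, which makes it at least 69.0-fold higher with 3 counts over those libraries as the limit. The gamma gene IGHG4 was at 3.70 to 27.0 CPM in OCILy10 and 104 to 223 CPM in TMD8, against 650 to 2267 CPM in DOHH2 and 3 counts in Toledo. The lambda gene IGLC3 was at 0.106 to 36.1 CPM in OCILy10 and 3.90 to 20.1 CPM in TMD8, against 1263 to 5063 CPM in DOHH2 and 0 counts in Toledo. Neither was called, and most of the sequence of IGHG4 and IGLC3 is shared with other genes of their families, so which family member was read is uncertain. Toledo had IGLL1, a surrogate light chain of precursor B cells, at 74.2 and 37.1 CPM, with 0 counts in OCILy10 and TMD8. The least of its 4 pair differences was -6.49, so DOHH2 also stood above OCILy10 and TMD8 for IGLL1. Of 12 tested constant genes, 5 were consistently higher (3 with Toledo replicate 2 in the fit) and 1, IGLL1, consistently lower, beside 17.9% and 14.6% of all tested genes.

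Further textbook genes of the activated type were higher in OCILy10 and TMD8 almost throughout. Of 19 tested, 15 were consistently higher and 0 consistently lower, beside 17.9% and 14.6% of all tested genes, with a median of 2.83. SPIB, an ETS factor that partners IRF4 on DNA, was at 430 to 1854 CPM (median 951) against 15.4 to 147 CPM (median 55.3), without overlap (3.94 ± 0.22, adjusted p = 2.61e-09). SH3BP5, an inhibitor of the kinase BTK, was at 329 to 1109 CPM against 20.7 to 63.6 CPM (4.22 ± 0.19), though a large share of its exons overlaps another annotated gene. PTPN1, a phosphatase of JAK kinases, stood at 398 to 951 CPM against 106 to 130 CPM (2.30 ± 0.17), with both DOHH2 and Toledo in a narrow band. FUT8, a fucosyltransferase, was at 102 to 168 CPM against 4.46 to 22.3 CPM (3.62 ± 0.19). BATF, an AP-1 family factor that also binds beside IRF4, differed by 5.48 ± 0.52. BCL2, the inhibitor of apoptosis, was called lower (-0.53 ± 0.18, adjusted p = 0.0261) but not consistently, at 343 ± 153 and 322 ± 93.1 CPM in OCILy10 and TMD8, against 418 ± 232 and 624 ± 78.4 CPM in DOHH2 and Toledo. By the fit, which unlike the CPM means holds the depth term, OCILy10 minus DOHH2 was 0.14 for BCL2 and the other pairs were -0.83, -0.24 and -1.21.

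Many NF-kB targets stood higher in OCILy10 and TMD8, while the genes of the NF-kB machinery itself had a median closer to that of all genes. Of 30 tested targets, 14 were consistently higher and 1 consistently lower, beside 17.9% and 14.6% of all tested genes, with a median of 1.95. Of 16 subunits and inhibitors, 6 were consistently higher and 2 lower, the lower count near that share, with a median of 0.26. Without DOHH2 replicate 1 the higher counts were 9 targets and 3 subunits or inhibitors. The 2 lower genes were 0 with Toledo replicate 2 in the fit, in deep libraries alone, without TMD8 replicate 1 and without TMD8 replicate 2, and 1 without the depth term. TNF, an inflammatory cytokine, was at 10.1, 12.4 and 16.9 CPM in OCILy10 and at 99.4, 57.9 and 196 CPM in TMD8, against 0 to 0.61 CPM in DOHH2 and Toledo libraries (7.25 ± 0.53, adjusted p = 3.85e-08). IL10, the cytokine of the autocrine loop of this type, was at 10.0 to 95.1 CPM against 0 to 0.217 CPM. Neither gene overlapped between the groups, and for both DOHH2 and Toledo were close to 0.

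BCL2A1, an inhibitor of apoptosis, showed a graded pattern, with 159 to 227 CPM in OCILy10 and 164 to 293 CPM in TMD8, against 12.3 to 92.8 CPM in DOHH2 and 0.95 to 2.34 CPM in Toledo (4.32 ± 0.41). CFLAR, which blocks death receptor signals, averaged 965 ± 265 CPM in OCILy10 and 581 ± 189 CPM in TMD8, against 257 ± 141 CPM in DOHH2 and 26.2 ± 7.47 CPM in Toledo (3.19 ± 0.27). CCL3, a chemokine, stood highest in DOHH2: it was at 2.64 to 10.6 CPM in OCILy10 and 0 to 5.39 CPM in TMD8, against 41.5 to 96.9 CPM in DOHH2 and 0 to 0.156 CPM in Toledo, and it was not called (adjusted p = 0.639). IRF1, an interferon-response factor, was the consistently lower target, at 17.8 to 52.8 CPM against 55.5 to 169 CPM (-1.45 ± 0.16).

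Among the machinery, REL, the NF-kB subunit amplified in some lymphomas, averaged 79.3 ± 30.9 CPM in OCILy10 and 92.4 ± 39.7 CPM in TMD8, against 37.3 ± 25 CPM in DOHH2 and 18.5 ± 3.44 CPM in Toledo (1.82 ± 0.25, adjusted p = 2.32e-05). The highest DOHH2 library of REL overlapped the lowest of OCILy10, and a large share of its exons overlaps another annotated gene. NFKBIZ, a nuclear inhibitor-family protein that acts as a cofactor of NF-kB, was at 200 to 474 CPM against 14.3 to 151 CPM, without overlap (2.84 ± 0.23), as was BCL3, a cofactor of the same family, at 38.6 to 150 CPM against 3.12 to 18.4 CPM (3.37 ± 0.28). RELA was consistently lower (-0.40 ± 0.15) and its kinase IKBKB too (-0.74 ± 0.15). The feedback inhibitors NFKBIA and TNFAIP3 were not called, with differences of -0.15 ± 0.26 and -0.32 ± 0.29. REL and NFKBIZ are shown here because both were called in each of the 4 pairs and both carry a match to the consensus NF-kB site, on either strand, in the 250 bases before their start. The sequences are from RefSeq on GRCh38.p14, REL at chr2:60881324-60881573 and NFKBIZ at chr3:101827740-101827989, both on the plus strand, with the matches at -46 and -223 in capitals.
REL: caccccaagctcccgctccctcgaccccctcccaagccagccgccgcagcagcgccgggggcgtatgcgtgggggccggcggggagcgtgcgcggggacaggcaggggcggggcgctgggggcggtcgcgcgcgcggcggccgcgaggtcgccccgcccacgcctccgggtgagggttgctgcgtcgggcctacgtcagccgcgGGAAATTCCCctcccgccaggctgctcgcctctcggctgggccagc
NFKBIZ: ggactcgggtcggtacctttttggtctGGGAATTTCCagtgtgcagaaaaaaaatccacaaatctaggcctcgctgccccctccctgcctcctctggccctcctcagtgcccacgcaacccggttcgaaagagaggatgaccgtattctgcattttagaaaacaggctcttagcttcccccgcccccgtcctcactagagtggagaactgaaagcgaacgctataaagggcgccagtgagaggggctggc
The shares that follow are over promoter windows that also take in a short stretch after the start. The NF-kB match was found in the promoters of 7 of the 561 genes called higher in each of the 4 pairs that had a promoter entry (1.25%) and of 0 of the 409 called lower, beside 0.63% of 9207 tested promoters and 0.579% of all 27305. The paired repeat read by interferon regulatory factors, searched on both strands, was in 25 of the 561 (4.46%) and 5 of the 409 (1.22%), beside 3.06% of tested and 3.65% of all promoters. Shares of the octamer ATGCAAAT were 1.43% and 1.96%, beside 1.3% of tested promoters. For the STAT letters TTCNNNGAA they were 6.95% and 6.6%, beside 6.32%. For the ETS-IRF composite element they were 3.57% and 2.93%, beside 2.76%. These matches are descriptions of letters, and no test was made on them.

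CD274, the checkpoint ligand PD-L1, was higher in OCILy10 and TMD8, and its promoter is shown because it holds the interferon regulatory repeat in 2 overlapping copies. It was at 21.5, 34.3 and 31.7 CPM in OCILy10 and at 31.3, 45.7 and 104 CPM in TMD8, against 4.35, 17.1 and 31.8 CPM in DOHH2 and 0 counts in Toledo. Toledo held no count, while the highest DOHH2 library overlapped OCILy10. The fit called the difference in each of the 4 pairs, and the fitted size (6.01 ± 0.68) depends on the empty Toledo libraries. The 250 bases before its start lie at chr9:5450292-5450541 on the plus strand, with the matches, which lie on the minus strand, in capitals.
CD274: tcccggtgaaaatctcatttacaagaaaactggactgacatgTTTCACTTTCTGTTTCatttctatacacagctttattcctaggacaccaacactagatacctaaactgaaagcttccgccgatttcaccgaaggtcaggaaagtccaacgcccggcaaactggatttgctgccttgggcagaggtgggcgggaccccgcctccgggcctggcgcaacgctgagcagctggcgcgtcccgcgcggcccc

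Of the pathways that lead to NF-kB, the B cell receptor list had 13 of 36 tested genes consistently higher and 3 lower (1 with Toledo replicate 2 in the fit), beside 17.9% and 14.6% of all tested genes, with a median of 0.85. The receptor's own chains CD79A and CD79B were not called (0.29 ± 0.20 and 0.10 ± 0.22), and neither was the kinase BTK (-0.17 ± 0.18). Higher were the adaptor BLNK (1.92 ± 0.22), the phospholipase PLCG2, at 278 to 427 CPM against 70.3 to 171 CPM (1.42 ± 0.17), the exchange factor RASGRP3, at 317 to 452 CPM against 3.80 to 72.5 CPM (4.31 ± 0.23), the adaptor GRB2 (1.33 ± 0.13) and BCL10, a scaffold of the complex that activates NF-kB (1.14 ± 0.18). For all of these the libraries of the groups did not overlap. Lower were the tetraspanin CD81 (-1.51 ± 0.17), the adaptor LAT2 (-1.31 ± 0.15) and the kinase PRKCB (-0.70 ± 0.18). In the toll-like receptor list, MYD88 was at 133 to 240 CPM against 67.7 to 132 CPM (0.97 ± 0.17). TLR10 was at 18.0 to 86.2 CPM against 1.90 to 9.66 CPM (3.21 ± 0.31), and the kinase IRAK1 at 56.8 to 107 CPM against 158 to 336 CPM (-1.44 ± 0.17). Of 20 tested genes of that list, 5 were consistently higher (3 with Toledo replicate 2 in the fit) and 3 lower, near the shares of 17.9% and 14.6% of all tested genes, with a median of 0.19. The 3 lower genes were 1 with Toledo replicate 2, without the depth term, in shallow libraries alone and without Toledo replicate 1.

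STAT3, its feedback inhibitor SOCS3 and the cytokine receptor chains IL10RA and IL21R stood higher in OCILy10 and TMD8. STAT3 was at 850, 1008 and 764 CPM in OCILy10 and at 308, 235 and 391 CPM in TMD8, against 58.5, 67.1 and 82.6 CPM in DOHH2 and 76.0 and 32.3 CPM in Toledo (3.05 ± 0.22, adjusted p = 3.83e-08). SOCS3, which STAT3 induces and which blocks its kinases, was at 12.2 to 698 CPM against 0 to 1.27 CPM (10.09 ± 0.91). The receptor chains IL10RA, at 69.1 to 115 CPM against 4.75 to 12.5 CPM (3.62 ± 0.23), and IL21R, at 103 to 350 CPM against 7.01 to 101 CPM (3.14 ± 0.28), did not overlap either. SOCS2, a feedback inhibitor of growth hormone and STAT5 signals, went the other way, at 0 to 2.57 CPM against 19 to 132 CPM (-5.34 ± 0.28), together with STAT5B (-1.24 ± 0.14). JAK2 was at 105 to 255 CPM in TMD8 and 1.58 to 4.86 CPM in OCILy10, against 7.07 to 24.2 CPM in DOHH2 and 9.97 to 13.3 CPM in Toledo, so its difference rested on TMD8. Of 22 tested genes, 10 were consistently higher and 4 lower, beside 17.9% and 14.6% of all tested genes, with a median of 0.98. With Toledo replicate 2 in the fit 6 were consistently higher.

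Interferon-stimulated genes were called higher in 25 of 36 cases and lower in 1, while 12 were consistently higher, beside 25.4% called higher and 17.9% consistently higher among all tested genes. Their median was 1.47. The 12 consistent genes became 19 in deep libraries alone, 7 in shallow ones and 8 with Toledo replicate 2 in the fit. OAS1, a sensor of viral RNA, was at 189 to 679 CPM against 7.48 to 156 CPM (3.78 ± 0.29). The guanylate-binding protein GBP2 was at 101 to 198 CPM in OCILy10 and 2.95 to 8.36 CPM in TMD8, against 0 to 1.83 CPM in DOHH2 and Toledo libraries (5.41 ± 0.35). IFI44L, by contrast, was at 22.8 to 151 CPM in OCILy10 and 25.8 to 73.6 CPM in TMD8, against 63.7, 282 and 1017 CPM in DOHH2 and 2.65 and 0 CPM in Toledo, and was not called (adjusted p = 0.2). LGALS3BP, a secreted glycoprotein, was the consistently lower member (-4.43 ± 0.41), with 50.9 to 151 CPM in DOHH2 and under 4 CPM in every other library.

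Transcription factors of B cells gave 11 consistently higher and 4 consistently lower genes of 27 tested, beside 17.9% and 14.6% of all tested genes, the lower count near that share, with a median of 0.91. POU2F2, the octamer-binding factor of mature B cells, was at 912 to 2421 CPM against 56.2 to 502 CPM (3.29 ± 0.16). IKZF1 was at 418 to 623 CPM against 119 to 324 CPM (1.44 ± 0.17) and TOX at 8.34 to 46.5 CPM against 0 to 3.26 CPM (4.78 ± 0.54). IKZF2, a relative of IKZF1, was lower, at 4.11 to 10.0 CPM against 54.7 to 238 CPM (-4.25 ± 0.23), as was SPI1, the myeloid and B cell factor PU.1 (-1.83 ± 0.32). Among 15 tested receptors of migration, 4 were consistently higher and 3 lower, not far from the shares of all genes. RGS16, an inhibitor of chemokine signals, was at 6.38 to 17.4 CPM against 39.7 to 236 CPM (-3.25 ± 0.17). CXCR5, the receptor that guides B cells to follicles, was at 42.9 to 206 CPM against 0.109 to 2.54 CPM (6.93 ± 0.44), though most of its exonic sequence overlaps another annotated gene and its reads may belong to either. The B cell surface protein MS4A1 stood at 1025 to 1736 CPM against 118 to 303 CPM (2.75 ± 0.21).

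Class II MHC genes, which present antigen to helper T cells, were consistently lower in OCILy10 and TMD8 for 6 of 16 tested genes and consistently higher for 1, with 10 called lower and 2 called higher, beside 14.6% and 17.9% of all tested genes that differed consistently. The 1 higher gene was 0 with Toledo replicate 2 in the fit, without the depth term, in deep and in shallow libraries and without TMD8 replicate 3. Their median was -0.64, and OCILy10 was near 0 for several of them. The 12 consecutive genes of the table from HLA-DRA to TAP1 on chromosome 6 (chr6:32439842-32859585) held 74 counts over the 3 OCILy10 libraries and 13638 over the 3 TMD8 libraries, against 25571 over the 3 DOHH2 libraries and 13278 over the 2 Toledo libraries. Next to them, the 6 genes from HLA-DMB to HLA-DPB1 held 20273 counts in OCILy10 and 7511 in TMD8, against 12662 in DOHH2 and 7788 in Toledo. OCILy10 was thus near 0 over a run of neighbouring genes, and the genes next to the run were read there. Of the 6 consistently lower class II genes, HLA-DRA, HLA-DRB1, HLA-DRB5, HLA-DQA1 and HLA-DQB1 lie in the run, and HLA-DPB1 lies outside it. These are sums of counts, not scaled for depth, and the DNA of the run was not analysed here. The run holds class II genes as well as TAP1, TAP2, PSMB8 and PSMB9, which cut and carry peptides for class I presentation: PSMB8 was at 0 to 0.143 CPM in OCILy10 and 52.9 to 84.9 CPM in TMD8, against 64.8 to 117 CPM in DOHH2 and 20.9 to 51.1 CPM in Toledo. HLA-DQB1 was low in both activated-type lines, at 0 to 1.58 CPM in OCILy10 and 0.557 to 2.45 CPM in TMD8, against 130 to 238 CPM in DOHH2 and 10.5 and 20.7 CPM in Toledo (-6.19 ± 0.39). The TMD8 libraries held 15 counts of HLA-DQB1 beside 448 of its neighbour HLA-DQA1. Whether reads of each line were placed equally well on these class II genes was not tested. The activator CIITA was not called (0.23 ± 0.25). Of 18 class I genes 0 were consistently higher and 1 lower. This run was singled out after its values were seen.

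Death and division genes moved in part. Of 13 tested genes of the BCL2 family, 8 were consistently higher, beside 17.9% of all tested genes, on both sides of the balance: MCL1, which blocks death (0.73 ± 0.18), and BCL2L11, which promotes it, at 197 to 824 CPM against 38.9 to 208 CPM (2.23 ± 0.17). This count was 2 with Toledo replicate 2 in the fit, 3 in shallow libraries alone and 5 without OCILy10 replicate 2. Of 17 tested genes of cell cycle entry, 1 was consistently higher and 6 lower, beside 17.9% and 14.6% of all tested genes: RB1, the brake of the cycle, at 441 to 787 CPM against 130 to 361 CPM (1.39 ± 0.18), and among the lower ones the inhibitor CDKN2C, at 3.17 to 34.5 CPM against 47.7 to 102 CPM (-2.67 ± 0.23), and E2F2, a driver of DNA synthesis genes (-2.31 ± 0.23). MYC was not called (-0.42 ± 0.28). Of 25 lymphoma chromatin and driver genes 6 were consistently higher, among them the DNA demethylase TET2 (1.5 ± 0.17), TBL1XR1 (1.37 ± 0.14) and the acetyltransferase EP300 (0.98 ± 0.14), and 1 was lower, the demethylase KDM1A (-0.95 ± 0.12). The 6 were near the share of all genes, and 4 were consistently higher and 2 lower with Toledo replicate 2 in the fit. Of 21 costimulatory genes 4 were consistently higher, among them CD37, a tetraspanin and antibody target, at 182 to 692 CPM against 19.1 to 46.7 CPM (3.47 ± 0.19), and 4 lower, among them SLAMF6 (-2.70 ± 0.42) and CD84 (-2.59 ± 0.28), both counts near the shares of all genes.

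**Figure D3:**
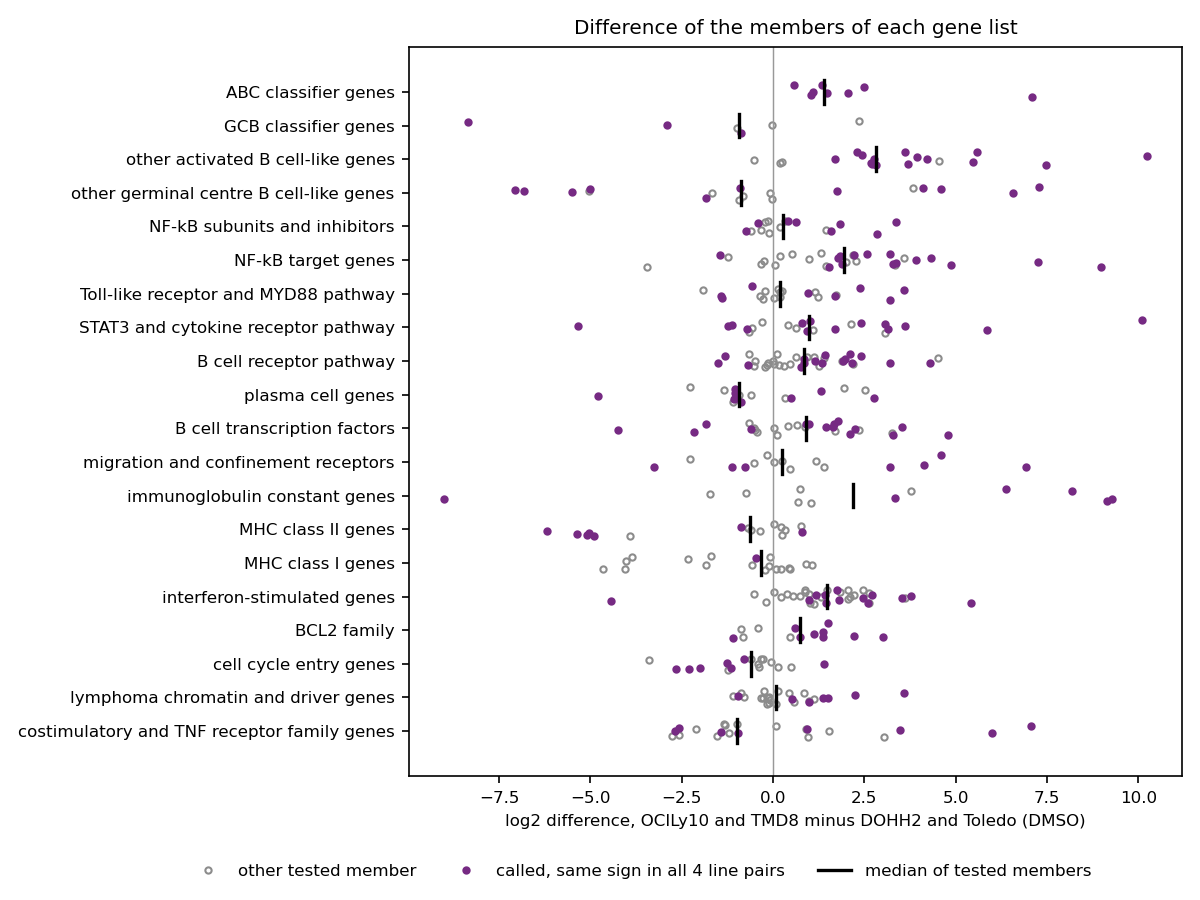
Log2 difference, OCILy10 and TMD8 minus DOHH2 and Toledo, of every tested member of 20 gene lists, with filled points for members that were called with the same sign in all 4 line pairs, open points for the others and a bar at the median. The lists of the activated type, NF-kB targets and interferon-stimulated genes lie mostly right of 0, with medians of 1.41 to 2.83, while germinal centre and plasma cell genes lie on both sides.

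The genes with the firmest separation were chosen by the least of their 4 pair differences, among genes called, of the same sign, without overlap of libraries and with at least 5 CPM in both lines of the higher group. Libraries of the groups did not overlap for 1383 tested genes (11.5%), 806 higher (6.68%) and 577 lower (4.78%), and 619 higher and 501 lower genes met the rule. The 15 first in each direction were close to on or off: in 28 of the 30 genes at least 1 line held 0 counts, so the fitted log2 differences have no fixed size. The least pair difference was 7.94 for the last higher gene named and 7.82 for the next one, SOCS3, and -7.99 and -7.83 for the last lower gene and the next one, ZNF570.

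Among the 15 higher genes, CHN2, a GTPase-activating protein, was at 22.1, 16.4 and 40.7 CPM in OCILy10 and at 87.5, 75.8 and 94.2 CPM in TMD8, against 0 counts in all DOHH2 and Toledo libraries, at least 359-fold higher with 3 counts over those libraries as the limit. GZMB, the protease granzyme B, was at 3.59 to 63.9 CPM in OCILy10 and 228 to 951 CPM in TMD8, against 0 counts. SIGLEC6, a sialic acid receptor, was at 2.11 to 10.1 CPM in OCILy10 and 136 to 222 CPM in TMD8, against 0 counts. Both were thus present in every OCILy10 and TMD8 library, but at levels that differed widely between those lines. RYR1, a calcium release channel, had like levels in both lines, at 15.9 to 30.8 CPM in OCILy10 and 16.6 to 40.7 CPM in TMD8, against 0 counts, at least 167-fold higher. IL2RB, a chain of the interleukin receptors for IL2 and IL15, was at 11.1 to 140 CPM against 0 to 0.312 CPM. The other members were ADTRP, ARMCX2, B3GALNT1, PLXNA2, RIC3, THNSL2, TMPRSS6 and VSNL1, with 0 counts in DOHH2 and Toledo and at least 49.5-fold to 275-fold higher, IGHM, and IGLL5, part of which overlaps or matches other lambda genes.

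Among the 15 lower genes, ADD2, a cytoskeletal adducin, was at 0 counts in all OCILy10 and TMD8 libraries, against 54.6, 46.3 and 74.4 CPM in DOHH2 and 49.1 and 47.5 CPM in Toledo, at least 570-fold lower. INSR, the insulin receptor, was at 0 to 0.528 CPM against 82.7 to 165 CPM (-11.01 ± 0.42, adjusted p = 6.66e-10). SMAD1, a mediator of BMP signals, was at 0 to 0.571 CPM against 50.9 to 81.9 CPM. LAMP3, a lysosomal membrane protein, was at 0 to 0.49 CPM against 15.2 to 317 CPM. MEST, an imprinted gene, was at 0 to 0.286 CPM against 34.1 to 92.5 CPM, and the mitochondrial enzyme OAT at 0 to 0.143 CPM against 11.4 to 155 CPM. DOHH2 and Toledo held reads of each of these genes in all of their libraries. ADM2, OR13A1 and TRIQK had 0 counts in OCILy10 and TMD8. The remaining 6 were zinc finger genes, ZNF91, ZNF254, ZNF441, ZNF605, ZNF607 and ZNF813, each with 0 counts in OCILy10 and TMD8, against 22.3 CPM in the median DOHH2 or Toledo library for ZNF91 and 22.2 CPM for ZNF254. All 30 named genes were called in each of the 4 pairs and whichever library was left out. They were chosen for wide separation in these same libraries, so this is no separate check. With Toledo replicate 2 in the fit, 29 of the 30 were called in the same direction.

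**Figure D4:**
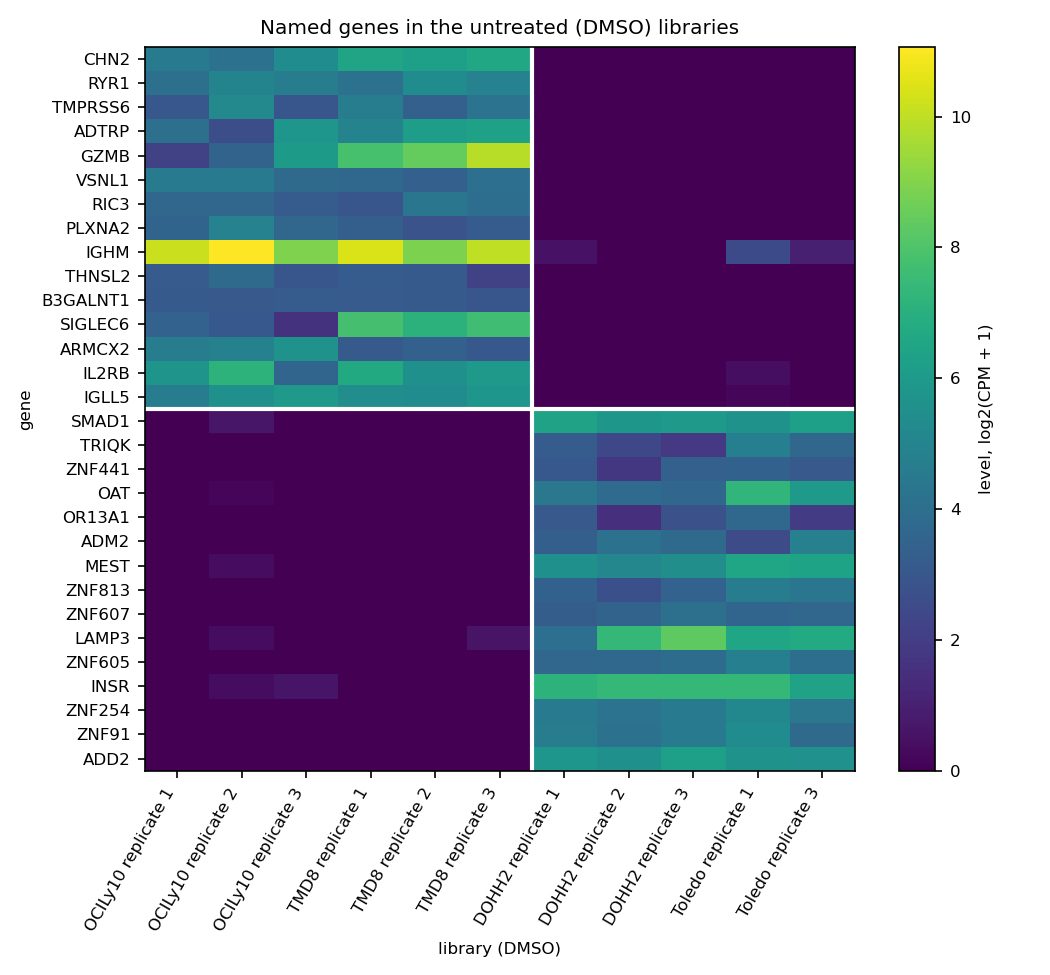
Level, as log2(CPM + 1) by colour, of the 15 higher and 15 lower named genes (rows) in the 11 untreated libraries (columns, OCILy10 and TMD8 left of the white line, DOHH2 and Toledo right of it). Each block of genes is lit in 1 group and dark in the other, with IGHM reaching the highest levels and a few low counts in the dark blocks.

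The contrast was read again in libraries it did not use, from the same lines exposed to NEO2734 (11 libraries, with DOHH2 replicate 3 left out) and to OTX015 (12 libraries). With NEO2734, 5126 of 12220 tested genes were called (41.9%), 2710 of them higher (22.2%), and 3722 differed consistently (30.5%). When DOHH2 NEO2734 replicate 3 was kept in the fit, 5005 of 11611 tested genes were called and 3487 differed consistently. With OTX015, 5152 of 11114 were called (46.4%), 2555 of them higher (23.0%), and 3530 differed consistently (31.8%). Of the 3921 genes that differed consistently in DMSO libraries, 3740 were tested with NEO2734 and 2731 differed consistently in the same direction, which is 69.7% of the DMSO list and 73.4% of the NEO2734 list, with 1 in the opposite direction. For OTX015 the count was 2714, 69.2% of the DMSO list and 76.9% of the OTX015 list, again with 1 opposite. Of the 1285 genes called in each of the 4 pairs in DMSO libraries, 1184 (92.1%) and 1126 (87.6%) differed consistently in the same direction with NEO2734 and OTX015. The conditions share no library but they share the lines, and whether a difference changed with a compound was not tested.

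Of the 30 named genes, which were chosen for their wide separation in DMSO libraries, 30 of 30 tested with NEO2734 and 27 of 27 tested with OTX015 were called in the same direction. The IRF4 difference was 0.84 with NEO2734 and 0.81 with OTX015. Interferon-stimulated genes had 12 consistently higher members in DMSO libraries, 5 of 33 tested with NEO2734 and 4 of 31 with OTX015, and their median was 1.47 in DMSO, 0.68 with NEO2734 and 0.46 with OTX015 libraries. The classifier list of the activated type had medians of 1.41, 1.48 and 1.5 in that order, while 8 of its 8 genes were consistently higher in DMSO libraries, 5 of 8 with NEO2734 and 5 of 8 with OTX015. Of the toll-like receptor list, 5 of 20 tested genes were consistently higher in DMSO libraries, 1 of 17 with NEO2734 and 1 of 16 with OTX015.

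**Figure D5:**
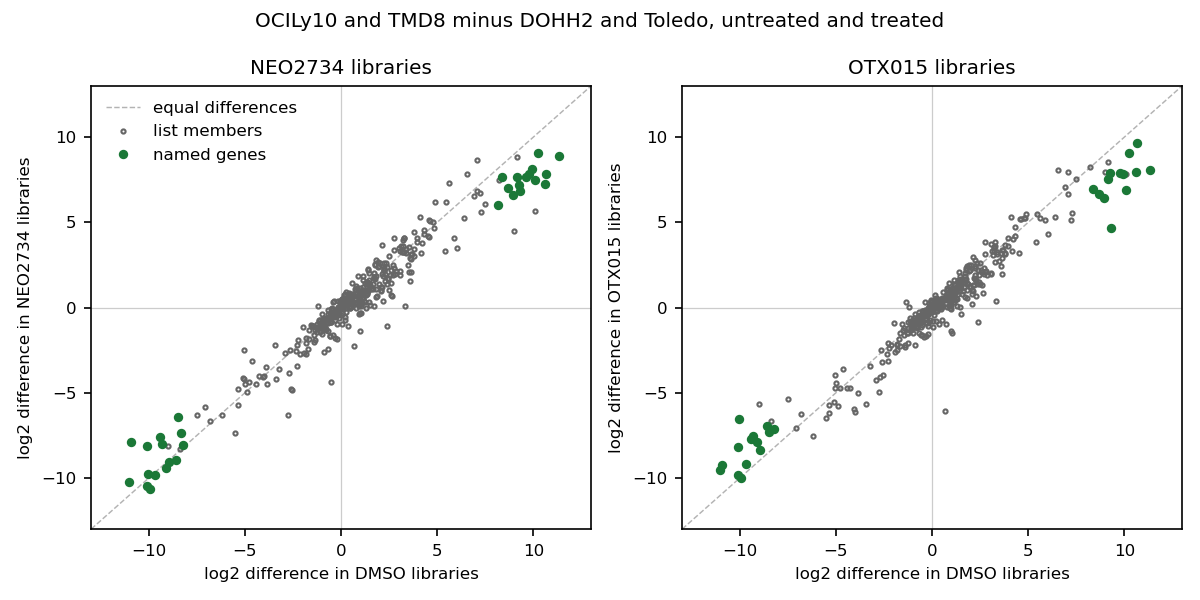
Log2 difference, OCILy10 and TMD8 minus DOHH2 and Toledo, of list members (open) and of the 30 named genes (filled green) in NEO2734 libraries (left) and OTX015 libraries (right) on the vertical axis, against DMSO libraries on the horizontal axis, with the line of equal differences dashed. The named genes lie in the corners of the same sign in both panels.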

How the data were processed

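RNA-seq gene counts of 39 libraries were used as deposited by the authors. Reads were aligned with STAR, and edgeR and the hg38 build are also named, per the submitters' processing notes, while no source used here gives the counting program, the annotation or the strandedness. The labels' shared treatment text names other compounds and times, so each sample's own label was used. Of 15808 gene IDs, 14179 had a symbol. Counts were scaled by TMM and tested with edgeR 4.0.16 (quasi-likelihood, Benjamini-Hochberg adjustment over all tested genes) in R 4.3.3, with a coefficient per line and a depth term (over or under 5000000 counts), after a filter on low counts by line. DESeq2 1.42.0 and limma 3.58.1 served as alternatives, and the procedure was tested on simulated data. The members and gene lists were chosen with earlier results of these data known. The 15 higher and 15 lower genes were named by their smallest pair difference, with at least 5 CPM on average in both lines of the higher group, and genes with at least 0.5 of their 31-mers shared were left out. Consistent members of each list were ranked in the same order, and some of the first 6 are named, with both classifier lists in full. Not all of the first 6 are named, and other members, such as BLNK, CFLAR and PTPN1, are named from outside them. Other genes named, such as SDC1, CCL3, JAK2, IFI44L, IGHG4, IGLC3 and PSMB8, were chosen after their values were seen. The labels do not say that replicates are separate cultures, so p-values measure only the spread between libraries, which may be technical, and limits from 3 counts cover counting error only. A few members of the lists are counted but not reported by name here. Promoters are from RefSeq on GRCh38.p14.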

Additional observations from a re-analysis of the deposited data

Results flagged for a closer look

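Toledo DMSO replicate 2, which the comparisons do not use, held 34 genes particular to OCILy10 at a median of 66.6% of their OCILy10 level. These genes were chosen for at least 10 CPM in OCILy10 and at most 1 CPM elsewhere, so their median of at most 1.59% in the 8 other libraries follows from the choice. The library held 26 genes particular to Toledo at 31.2% of their Toledo level. It stands here because reads of another line appear in a library outside the comparison.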

How the results depend on the processing

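Consistently different genes numbered 3921, and 3473 to 4167 when each library was left out in turn (called genes 4507 to 5907). Higher genes outnumbered lower ones, 2159 against 1762, but not with library totals (1897 against 2069) or Toledo replicate 2 (1386 against 1439). Nor did they without the line DOHH2 (2606 against 2846). Without the depth term the counts were 1587 and 1193. Shallow libraries alone gave 2507 consistent genes, with 3106 called, and without the depth term 3721 were called (3289 with NEO2734 and 3431 with OTX015). With the line as the unit 0 were called. IRF4 was then 1.25 (summed counts, adjusted p = 0.621) or 1.31 (line means, 0.593), MME -8.24 (0.209) or -6.40 (0.201), and IRF4 without Toledo 0.54 (0.119). Leaving out libraries gave 1.15 to 1.56 for IRF4 and -9.41 to -7.12 for MME. MYBL1, at -0.04, turned to 0.23 with Toledo replicate 2, 0.14 without the depth term, 0.00026 with DESeq2, 0.15 with limma-voom, 0.95 in shallow libraries, 0.25 on line means, 0.13 without OCILy10 and -0.20 to 1.04 with a library left out. S1PR2 turned to 0.89 without OCILy10 and 0.69 without DOHH2, and SERPINA9 to -1.18 without TMD8 and -1.90 without Toledo. The cause was not tested. Of the gene values under alternatives, 1074 kept direction and side of the threshold and 136 no longer passed it. Replicate numbers did not pair the libraries (r of -0.563 to 0.808 for equal numbers, 0.389 to 0.808 within a depth class), and with the replicate block 3694 genes differed consistently and 5387 were called (4817 called with NEO2734, 5087 with OTX015). Depth, at 1000281 counts in the smallest library, limits genes of a few counts.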

Other observations

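Consistent differences were spread unevenly over chromosomes, a pattern chosen after the values were seen and not tested, with DNA copy number not analysed here. On chromosome 19, 275 of 830 tested genes were consistently higher in OCILy10 and TMD8 (33.1%) and 86 lower (10.4%), beside 17.9% and 14.6% of all genes. The higher ones gathered in its last 20 Mb: 98 of 173 genes between 40 and 50 Mb were higher (56.7%) and 0 lower, and 97 of 169 between 50 and 60 Mb were higher and 16 lower. Between 20 and 30 Mb, by contrast, 14 of 27 genes were lower (51.9%) and 2 higher. The median of that window ran from -0.46 for OCILy10 minus DOHH2 to -5.25 for TMD8 minus DOHH2. By line pair the chromosome's median difference ran from 0.04 for OCILy10 minus DOHH2 to 0.93 for TMD8 minus Toledo. On chromosome 7, 55 of 579 genes were higher (9.50%) and 218 lower (37.7%), with a median between -0.57 and -0.28 in the 4 pairs. On chromosome 18, 67 of 185 genes were higher (36.2%) and 14 lower (7.57%). The gene lists and named genes above were set beside the shares of all tested genes, not those of their own chromosome or window. How far these regions enter the list counts and named genes was not tested.

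Of 379 tested genes whose symbols begin with ZNF, 71 were consistently higher (18.7%) and 98 lower (25.9%), beside 17.9% and 14.6% of all tested genes. On chromosome 19 these were 50 and 51 of 170 ZNF genes, and on the other chromosomes 21 and 47 of 209. Genes at 0 counts in DOHH2 and Toledo with at least 5 CPM in both other lines numbered 21, of which 0 were ZNF genes. Genes at 0 counts in OCILy10 and TMD8 by the same rule numbered 15, of which 8 were. Of all 12068 tested genes, 379 were ZNF genes. On chromosome 19 lay 8 of the 15 genes and 2 of the 21. The zinc finger genes named above are among the 15.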
